A study of Mus musculus with 12 samples.

Results

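Left ventricles injected with a Upy-PEG hydrogel carrying antimiR-195 were compared with left ventricles injected with the Upy-PEG hydrogel alone, across every gene with enough reads to test. The comparison took 8 of the 12 libraries of the series, the 4 labelled Upy-PEG_antimiR-195 and the 4 labelled Upy-PEG, and 14770 of the 38293 genes in the count table. The remaining 4 libraries, from hearts injected with phosphate-buffered saline (PBS) and no drug, are given as background and helped to estimate the spread between libraries. All hearts were from healthy C57BL/6J mice whose thorax was opened for 2 injections of 10 µl into the heart muscle, and they were harvested on day 3. Both groups compared therefore share the surgery and the gel, and by their labels differ only in the drug. The labels give no dose, age or sex and describe no gel with a control oligonucleotide, so an action on miR-195 and an action of any oligonucleotide in the gel cannot be told apart. They also do not say that each library came from its own animal, so p-values measure the spread between these libraries.

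MicroRNAs are short RNAs that pair through their seed, a stretch near the 5′ end, with sites in the 3′ untranslated region (3′ UTR) of messenger RNAs and lower the stability and translation of those messages. miR-195 is a member of the miR-15 family, known in the heart for holding back cell division after birth, with the checkpoint kinase gene Chek1 among its reported targets. An antimiR is an oligonucleotide complementary to a microRNA that keeps it from its targets. Upy-PEG is a supramolecular gel of poly(ethylene glycol) carrying ureidopyrimidinone groups, used to hold a drug at the site of injection.

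The mature sequences of the family show what an oligonucleotide against miR-195 has to tell apart. They are written 5′ to 3′ from RefSeq on GRCm38.p6, with the seed (bases 2 to 8) in capitals, and miR-195a-5p itself lies at chr11:70235062-70235082 on the plus strand.
miR-195a-5p: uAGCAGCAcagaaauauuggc
miR-16-5p: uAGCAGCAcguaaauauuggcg
miR-15a-5p: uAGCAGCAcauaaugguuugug
miR-15b-5p: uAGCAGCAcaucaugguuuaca
miR-497a-5p: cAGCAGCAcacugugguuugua
miR-322-5p: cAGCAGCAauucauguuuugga
All 6 carry the same seed. Over the 21 positions of miR-195a-5p, miR-16-5p had the same base at 19, miR-15a-5p at 15, miR-15b-5p at 14, miR-497a-5p at 12 and miR-322-5p at 11. Sites for miR-195 in a message are therefore sites for all 6, and the read-out used here is the 7-base match to the seed, TGCTGCT. Blocking of the microRNA itself was not measured: the libraries hold polyadenylated RNA, and the Mir195a precursor gene had at most 6 counts in a library.

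The sites below were read from the longest annotated 3′ UTR of genes named in the results, on GRCm38, with the seed match in capitals and a final capital A where the site is an 8mer (TGCTGCTA). Chek1, Kif23, Ccne1 and Cdk6 are reported cell-cycle targets, Nusap1 is a spindle gene, and Col1a1 and Cox11 are genes with a site that lay far down and far up in the comparison. The Chek1 site is at chr9:36710288-36710309 (minus strand), the Kif23 site at chr9:61917463-61917484 (minus), the Ccne1 site at chr7:38098021-38098042 (minus), the Cdk6 site at chr5:3524533-3524554 (plus), the Nusap1 site at chr2:119649606-119649627 (plus), the first Col1a1 site at chr11:94952828-94952849 (plus) and the Cox11 site at chr11:90644740-90644761 (plus), each within the 3′ UTR.
Chek1 8mer: tggtgaatagagTGCTGCTAtg
Kif23 8mer: aaaacaaacaaaTGCTGCTAtt
Ccne1 8mer: ttattttgtaagTGCTGCTAtg
Cdk6 8mer: agttgcacagggTGCTGCTAtc
Nusap1 7mer-m8: aaagctgagaatTGCTGCTgta
Col1a1 7mer-m8: accctcccctctTGCTGCTgct
Cox11 8mer: gtggtgaaaagaTGCTGCTAtc
Their values follow with the targets and with the site analysis.

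Gene totals were 25018689 to 28249454 counts in the Upy-PEG libraries and 22353241 to 25589250 counts in the antimiR-195 libraries. Myl2, the ventricular myosin light chain, stood at 2252.6 to 5036.9 RPKM (reads scaled by gene length and library size) over the 8 libraries, and the keratin gene Krt5 at 0 in all 8. Myl7, the atrial light chain, ranged from 1.46 to 39.2 RPKM, with its highest value in antimiR-195 replicate 2. Within their groups 3 libraries stood apart. Upy-PEG replicate 1 was highest of the 12 libraries for the extracellular matrix, interferon and mitosis genes described below. AntimiR-195 replicates 2 and 3 had long genes lower and short genes higher than any other library. Results that rest on these libraries are given with and without them.

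No gene passed an adjusted p of 0.05 in edgeR's quasi-likelihood test with Benjamini-Hochberg adjustment over the 14770 genes, which is 0% called, and none passed 0.10. The lowest adjusted p was 0.364. At an unadjusted p under 0.05 there were 1930 genes (13.1%), of which 985 were higher with antimiR-195 (6.67% of the genes tested) and 945 lower (6.4%). DESeq2 on the same counts called 16 genes at an adjusted p of 0.05, 2 of them higher (0.0147% of 13613 genes with an adjusted p) and 14 lower (0.103%). All 4 antimiR-195 libraries lay above all 4 Upy-PEG libraries for 286 genes (1.94%) and below them for 364 genes (2.46%). The split into higher and lower depended on the scaling: with library size alone in place of TMM factors, 145 genes were higher and 2556 lower at an unadjusted p under 0.05, and the median log2 fold change of all genes moved from -0.01 to -0.16. Higher and lower refer to values below, since no member of any list passed edgeR's threshold.

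The 10 genes with the lowest p on the lower side were Csf2ra, Pik3ap1, Brca1, Ccnf, Mki67, Aspm, Csf2rb2, Il1rn, Pik3cd and Chaf1a. Csf2ra, the ligand-binding chain of the receptor for the growth factor GM-CSF, stood at 26.0, 24.1, 18.1 and 22.3 CPM (counts scaled to a fixed library total) with Upy-PEG and at 14.5, 14.1, 13.7 and 14.3 CPM with antimiR-195. The groups did not overlap and the 4 antimiR-195 libraries differed little from one another. Its log2 fold change was -0.68 ± 0.12 (SE, n = 4 per group), with an adjusted p of 0.364 in edgeR and 0.0018 in DESeq2, and the PBS libraries stood at 15.1 to 19.4 CPM. Csf2rb2, which encodes a beta chain of the receptor for the related cytokine interleukin-3, was at 6.86 to 8.72 CPM with Upy-PEG and 3.57 to 4.94 CPM with antimiR-195, again without overlap. Pik3ap1, an adaptor that links immune receptors to PI3-kinase, was at 13.8, 7.17, 5.28 and 7.46 CPM with Upy-PEG and at 3.20, 1.89, 2.54 and 3.29 CPM with antimiR-195. Upy-PEG replicate 1 held the highest value, and the lowest Upy-PEG library still lay above the highest antimiR-195 library. The log2 fold change of Pik3ap1 was -1.63 ± 0.29 (SE), an adjusted p of 0.364 in edgeR and 0.00098 in DESeq2. Pik3cd, the PI3-kinase catalytic subunit of white cells, had a log2 fold change of -0.67 ± 0.15 (SE), and Il1rn, the antagonist of the interleukin-1 receptor, of -1.19 ± 0.25 (SE). Neither gene had an antimiR-195 library above a Upy-PEG library. Csf2ra, Pik3ap1, Csf2rb2, Pik3cd and Il1rn were all among the 16 genes called by DESeq2, as was the scavenger receptor gene Stab1, which stood at 166 to 209 CPM with Upy-PEG and at 120 to 163 CPM with antimiR-195.

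**Figure D1:**
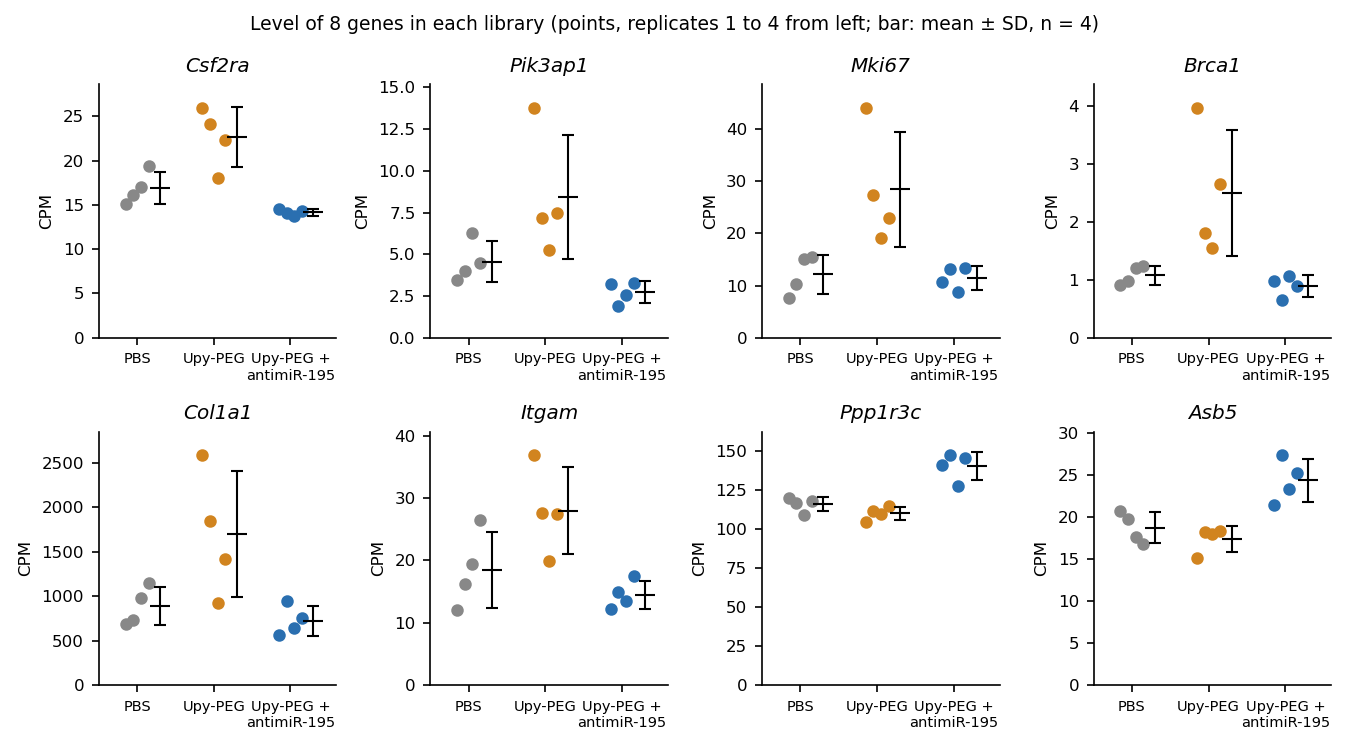
Level of 8 genes in CPM (vertical axes, starting at 0) in each library of the PBS, Upy-PEG and antimiR-195 groups; points are replicates 1 to 4 from left to right and bars give the mean ± SD (n = 4). Csf2ra, Pik3ap1, Mki67, Brca1 and Itgam were lower in all 4 antimiR-195 libraries than in all 4 Upy-PEG libraries, Ppp1r3c and Asb5 were higher in all 4, and Col1a1 overlapped between the groups.

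Reported targets of miR-195 are the genes whose messages a blocked microRNA would release. None was called, and the reported targets that act in mitosis and at checkpoints lay lower with antimiR-195 and not higher. Of 10 such genes, all tested, 9 had a log2 fold change below 0 and 1 above, against 49.2% of all genes above 0, and the median was -0.67 beside -0.01 for all genes. Unadjusted p was under 0.05 for 6 of them, all lower (6.4% of all genes). Chek1, the checkpoint kinase, stood at 2.11, 1.65, 1.39 and 1.33 CPM with Upy-PEG and 0.882, 1.55, 1.03 and 0.929 CPM with antimiR-195. The groups overlapped through antimiR-195 replicate 2, and the log2 fold change was -0.57 ± 0.36 (SE), with an adjusted p of 0.459 in edgeR. Kif23, a kinesin of the dividing cell's midbody with an 8mer site, was at 4.96 to 11.7 CPM with Upy-PEG and 2.54 to 5.25 CPM with antimiR-195. Spag5, a spindle protein gene, had a log2 fold change of -1.19 ± 0.36 (SE) and Plk1, the polo-like kinase, of -0.95 ± 0.26 (SE), although the 3′ UTRs of both held only a 6mer match. Nusap1 stood at 3.41 to 8.02 CPM with Upy-PEG and 2.51 to 4.56 CPM with antimiR-195, and Cdk1, the kinase that drives entry into mitosis, at 6.47 to 13.9 and 4.08 to 8.43 CPM. Birc5, which encodes survivin, was at 7.06 to 10.5 and 3.25 to 9.68 CPM, its highest antimiR-195 value again in replicate 2. Wee1, the kinase that restrains Cdk1, stood at 6.68 to 9.53 and 5.26 to 9.19 CPM and its difference was within the spread between libraries (log2 fold change -0.20 ± 0.19, SE). Without Upy-PEG replicate 1, the median of the 10 genes was -0.45 and 3 had an unadjusted p under 0.05.

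Targets that control entry into the cell cycle, the cyclins and kinases of the G1 phase, differed less. Of 12 genes in that list 11 were tested, 3 above 0 and 8 below, with a median log2 fold change of -0.07 and none at an unadjusted p under 0.05. Without Upy-PEG replicate 1 the median was 0.05, with 8 above 0 and 3 below. Ccnd1, cyclin D1, stood at 73.4, 65.5, 60.5 and 70.7 CPM with Upy-PEG and 74.7, 73.9, 60.8 and 77.0 CPM with antimiR-195, so the groups overlapped almost fully. Its log2 fold change was 0.08 ± 0.11 (SE) with TMM factors and -0.07 with library size alone. Ccne1, cyclin E1, was at 1.75 to 3.36 CPM with Upy-PEG and 1.74 to 3.87 CPM with antimiR-195, and Cdk6, a kinase partner of the D cyclins, at 1.92 to 5.03 and 1.56 to 3.60 CPM. Both differences were within the spread between libraries, with log2 fold changes of -0.06 ± 0.28 and -0.29 ± 0.31 (SE).

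Targets in survival, growth factor and metabolic signalling showed no common direction. Of 28 genes 27 were tested, 10 above 0 and 17 below, with a median log2 fold change of -0.04, which became 0.06 with antimiR-195 replicates 2 and 3 left out. Bcl2, the anti-apoptotic protein gene, stood at 7.90 to 11.8 CPM with Upy-PEG and 6.54 to 10.1 CPM with antimiR-195 (log2 fold change -0.19 ± 0.18, SE). Vegfa, the endothelial growth factor, was at 266 to 362 and 246 to 396 CPM, with a log2 fold change of 0.10 ± 0.15 (SE) that turned to -0.04 with library size alone. An unadjusted p under 0.05 was seen for 3 of the 27, a share close to the 13.1% of all genes. They were Ucp2, a mitochondrial carrier gene, at 93.6 to 116 and 72.0 to 92.3 CPM, the receptor gene Fgfr1 at 43.7 to 55.8 and 41.7 to 43.6 CPM, and Ikbkb, a kinase of the NF-kappaB pathway, at 36.2 to 39.6 and 28.3 to 35.6 CPM. Ucp2 had no 6mer match in its longest 3′ UTR, Fgfr1 had 2 of the 7-base matches and Ikbkb had 1. Of 13 genes of the microRNA processing and silencing machinery, 2 lay above 0 and 11 below, none at an unadjusted p under 0.05, and their median log2 fold change was -0.10. These are long genes (median 8120 bases), and their median relative to genes of the same length decile was -0.0049. It was 0.03 with the length slope as a covariate, 0.06 without antimiR-195 replicates 2 and 3 (8 of 13 above 0) and 0.09 without Upy-PEG replicate 1 as well (10 of 13 above 0). Dgcr8, the partner of Drosha in cutting microRNA precursors, and Ago1, an Argonaute protein gene, had the lowest p in the list and log2 fold changes of -0.18 ± 0.11 and -0.34 ± 0.21 (SE). Smc4, which carries miR-15b and miR-16 in an intron, stood at 20.7 to 30.1 CPM with Upy-PEG and 16 to 22.8 CPM with antimiR-195 (log2 fold change -0.43 ± 0.15, SE).

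Across all tested genes, genes with a miR-195 site had a shift close to 0 once the length of the 3′ UTR was taken into account. Of 13317 genes with an annotated 3′ UTR, 3300 held an 8mer or 7mer-m8 match (7 bases pairing with the seed) and 7245 held no 6mer match. The genes with a site had a median log2 fold change of -0.05 and the genes without one of 0.02, a difference of -0.08. The median 3′ UTR was 2294 bases long with a site and 705 without. Within deciles of 3′ UTR length, the shift was -0.0014 on the log2 scale. The same shift was taken in each library against the mean of the 8 libraries compared. It ran from -0.012 to 0.014 over the 4 Upy-PEG libraries and from -0.0072 to 0.00098 over the 4 antimiR-195 libraries, so the groups overlapped. The 604 genes with an 8mer, the strongest kind of site, had a median of -0.07, with 219 of them (36.3%) above 0, against 53.3% of genes with no 6mer match. These 8mer values are not adjusted for length, and the median 3′ UTR of those genes was 2676 bases long. Within deciles of length, sites for the seeds of 6 other microRNAs gave shifts from -0.024 (miR-29a-3p, 2123 genes) to 0.038 (miR-208a-3p, 252 genes), on either side of the value for miR-195.

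**Figure D2:**
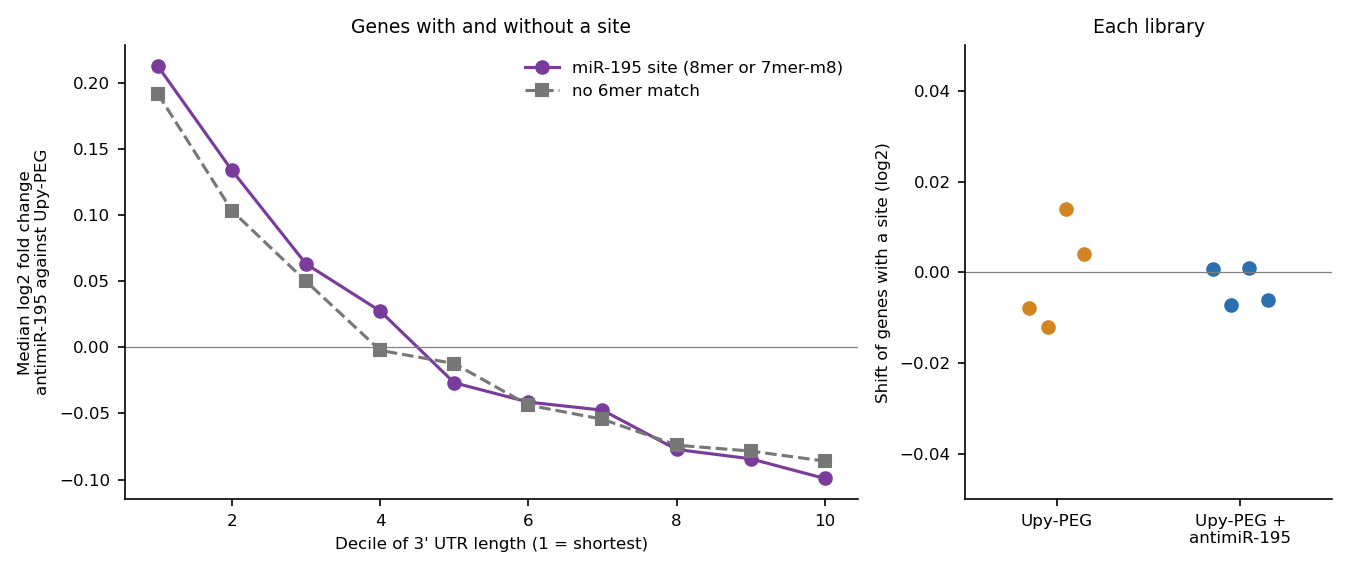
Left, median log2 fold change of antimiR-195 against Upy-PEG for genes with a miR-195 site (purple) and with no 6mer match (grey) in each decile of 3′ UTR length; right, the shift of site genes within those deciles in each library of the 2 groups. The 2 lines run together from about 0.2 in the shortest 3′ UTRs to about -0.1 in the longest, and the libraries of both groups lie on either side of 0.

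Among genes with a site, those with the lowest p were found on both sides. Cox11, an assembly factor of cytochrome c oxidase with an 8mer, stood at 11.4, 13.4, 15.3 and 12.9 CPM with Upy-PEG and 15.3, 21.8, 21 and 17.3 CPM with antimiR-195. The lowest antimiR-195 value lay just above the highest Upy-PEG value, equal to it at this rounding, and the log2 fold change was 0.51 ± 0.13 (SE). The phosphatase subunit gene Ppp6c had a log2 fold change of 0.30 ± 0.09, Nkiras1 of 0.56 ± 0.16, Maip1 of 0.38 ± 0.11 and Lbx2 of 1.09 ± 0.33 (SE). On the lower side were Chaf1a, which loads histones onto new DNA, at -0.72 ± 0.16, the collagen genes Col1a1 at -1.23 ± 0.28 and Col5a1 at -0.98 ± 0.24, the phosphatase gene Ssh3 at -0.45 ± 0.11, and Erf, a repressor of Ets target genes, at -0.45 ± 0.11 (SE). The adjusted p of each of these 10 genes was 0.364 in edgeR, and Chaf1a, Col1a1 and Ssh3 were called by DESeq2.

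Genes of mitosis were lower with antimiR-195 as a group. The list shares 7 genes with the 10 reported mitotic targets above (Anln, Birc5, Cdk1, Kif23, Nusap1, Plk1 and Spag5), so the lists are not separate results. All 33 genes of the spindle, kinetochore and cytokinesis list had a log2 fold change below 0, with a median of -0.81, equal to a 0.570-fold level, against -0.01 for all genes. An unadjusted p under 0.05 was seen for 26 of the 33 (6.4% of all genes), and 10 had all 4 antimiR-195 libraries below all 4 Upy-PEG libraries (2.46% of all genes). Mki67, which encodes the Ki-67 protein of dividing nuclei, stood at 44.1, 27.4, 19.1 and 23 CPM with Upy-PEG and at 10.6, 13.3, 8.70 and 13.3 CPM with antimiR-195. Even its lowest Upy-PEG library lay above every antimiR-195 library, and the PBS libraries stood at 7.69 to 15.4 CPM, overlapping the antimiR-195 group. The log2 fold change of Mki67 was -1.31 ± 0.27 (SE), with an adjusted p of 0.364 in edgeR and 0.0091 in DESeq2. Bub1b, a kinase of the spindle checkpoint, was at 4.52 to 9.70 and 2.44 to 3.44 CPM, and Kif20a, a kinesin of cytokinesis, at 7.78 to 14.5 and 4.01 to 5.98 CPM, both without overlap. Aspm, a spindle pole protein gene, and Ccnf, cyclin F, stood apart in the same way with log2 fold changes of -1.19 ± 0.25 and -1.3 ± 0.27 (SE).

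Replication and repair genes lay lower by less. Of 25 genes of DNA replication 22 were below 0 and 3 above, with a median log2 fold change of -0.46, and 8 had an unadjusted p under 0.05, all lower (6.4% of all genes). Mcm2 and Mcm3, subunits of the replicative helicase, stood at 10.7 to 14.6 and 11.4 to 16.7 CPM with Upy-PEG and at 7.79 to 9.09 and 8.03 to 11.9 CPM with antimiR-195. The transcription factor gene E2f8 had a log2 fold change of -1.03 ± 0.29 (SE) and did not overlap between the groups. Of 15 genes of homologous recombination 13 were below 0, with a median of -0.53, and 5 had an unadjusted p under 0.05 (6.4% of all genes). The replication median was -0.33 without Upy-PEG replicate 1, with 4 genes at that p, and the recombination median -0.30 with 1. Brca1, a scaffold of that repair pathway, stood at 3.98, 1.82, 1.55 and 2.66 CPM with Upy-PEG and 0.974, 0.645, 1.08 and 0.890 CPM with antimiR-195. Its groups did not overlap, and its log2 fold change was -1.49 ± 0.30 (SE). Fanci, of the Fanconi anaemia pathway, was at 0.833 to 2.30 and 0.510 to 0.813 CPM. By library, the mean deviation of the mitosis list from the mean of all 12 libraries was 1.19, 0.67, 0.19 and 0.45 on the log2 scale in Upy-PEG, and -0.50, 0.33, -0.48 and -0.11 in antimiR-195. AntimiR-195 replicate 2 thus lay above Upy-PEG replicate 3, and the list's mean overlapped between the groups. Without Upy-PEG replicate 1 all 33 genes were still below 0, the median was -0.56 and 12 had an unadjusted p under 0.05. Against the PBS libraries, which both comparisons share as controls, the median of the 33 genes was 1.1 for Upy-PEG and 0.24 for antimiR-195. Fewer dividing cells and less RNA of these genes per cell cannot be told apart in bulk tissue, here or in the groups below.

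**Figure D3:**
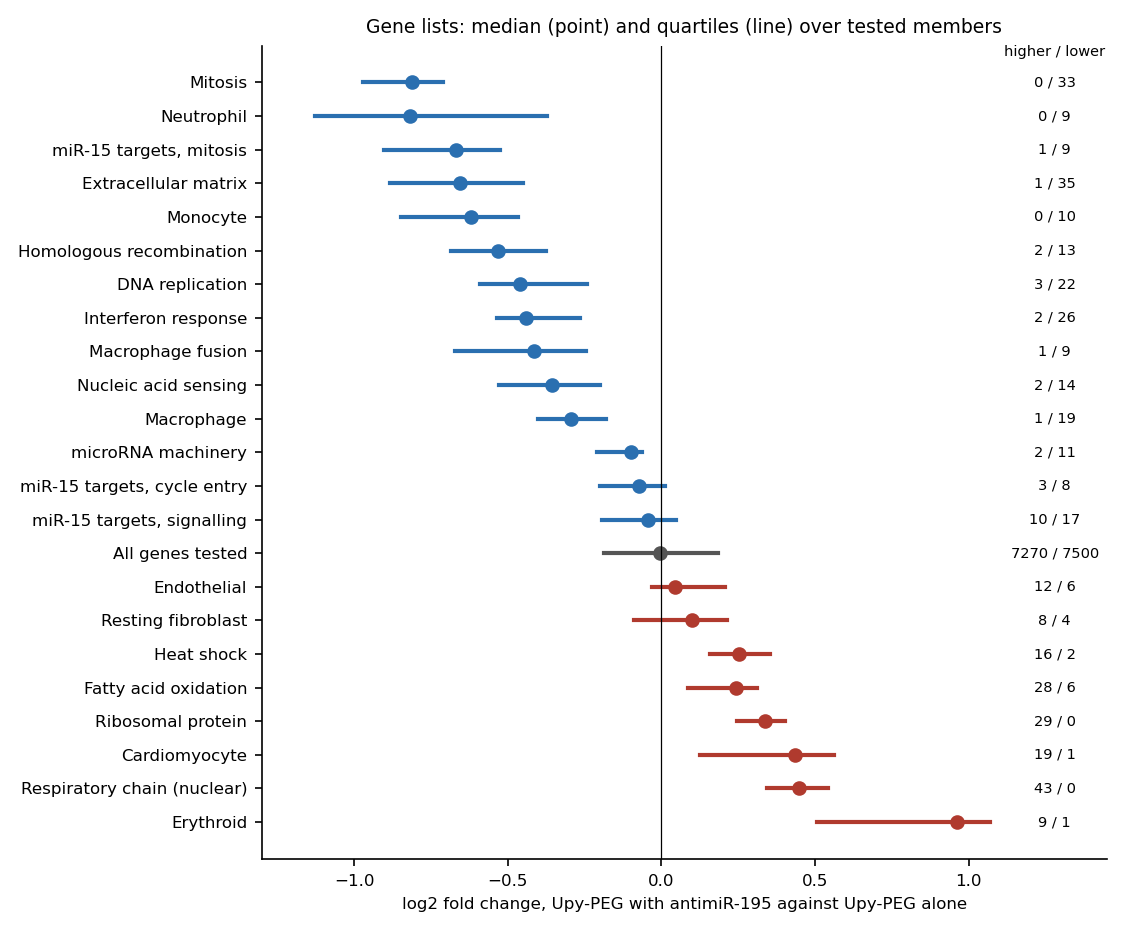
Median (point) and quartiles (line) of the log2 fold change of antimiR-195 against Upy-PEG over the tested members of each gene list, with the number of members above and below 0 at the right and all 14770 genes in grey. The neutrophil list, at -0.82, and the mitosis list, at -0.81, lie lowest and the erythroid list, at 0.96, highest.

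Macrophage, monocyte and neutrophil markers were lower with antimiR-195 by their medians, and other white cell lists differed among themselves. Of 20 macrophage markers 19 lay below 0, with a median log2 fold change of -0.29, 6 had an unadjusted p under 0.05, all lower (6.4% of all genes), and 3 did not overlap between the groups (2.46% of all genes). Itgam, the integrin CD11b of myeloid cells, stood at 36.9, 27.6, 19.8 and 27.4 CPM with Upy-PEG and at 12.2, 14.9, 13.4 and 17.5 CPM with antimiR-195. No antimiR-195 library reached the lowest Upy-PEG library, and the log2 fold change was -0.95 ± 0.23 (SE). Adgre1, the F4/80 antigen, was at 29.3 to 50.1 and 18.8 to 30.6 CPM, and Gpnmb, a glycoprotein of lipid-laden macrophages, at 32.5 to 60.0 and 14.8 to 27.4 CPM. Cd68, a lysosomal glycoprotein of macrophages, stood at 62.6, 69.7, 50.5 and 62.6 CPM with Upy-PEG and 34.6, 50, 39.4 and 42.0 CPM with antimiR-195, above the 18.1 to 34.4 CPM of PBS. AntimiR-195 replicate 2 was the closest to the Upy-PEG group. With antimiR-195 replicates 2 and 3 left out together, the macrophage median was -0.64 and 17 of 20 markers had an unadjusted p under 0.05. Without antimiR-195 replicate 1 the median was -0.15, with 16 of 20 below 0 and 6 at that p.

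Markers of recruited and fused cells pointed the same way. All 10 monocyte genes were below 0, with a median of -0.62, and 4 had an unadjusted p under 0.05 (6.4% of all genes). That median was -0.43 without Upy-PEG replicate 1, with 8 below 0 and 2 at that p. The lowest p was that of Itga4, an integrin of adhesion to vessel walls, at 5.79 to 11.1 and 4.06 to 5.77 CPM, followed by Fn1 and Vcan, matrix genes that fibroblasts also express. Fn1 appears again with the extracellular matrix genes below, so the monocyte and matrix results are not separate. Of 10 tested genes of macrophage fusion 9 were below 0, with a median of -0.42. The lowest p belonged to Atp6v0d2, a proton pump subunit of fused macrophages and osteoclasts, at 1.59 to 3.8 CPM with Upy-PEG and 0.742 to 1.64 CPM with antimiR-195. Sirpa, a surface receptor, and Mmp12, the macrophage elastase, had log2 fold changes of -0.48 ± 0.15 and -0.94 ± 0.33 (SE). All 9 tested neutrophil genes of 12 were below 0, with a median of -0.82 and 2 at an unadjusted p under 0.05 (6.4% of all genes). These were Mmp8, neutrophil collagenase, at 1.21 to 1.98 and 0.603 to 0.929 CPM, and Csf3r, the G-CSF receptor, at 8.17 to 13.1 and 5.01 to 7.10 CPM, neither overlapping. With antimiR-195 replicates 2 and 3 left out, the fusion median was -0.88 with 8 genes at that p. The neutrophil median was then -1.48, also with 8. Without antimiR-195 replicate 1 the fusion median was -0.32 and the neutrophil median -0.65, with 3 and 2 genes at that p. By library, the mean deviation of both lists overlapped between the groups. For neutrophil genes antimiR-195 replicate 3, at 0.62, lay above Upy-PEG replicates 1 and 2, at 0.41 and 0.39. For fusion genes antimiR-195 replicate 2, at 0.55, lay above Upy-PEG replicates 3 and 4, at 0.27 and 0.39. Of 14 T and NK cell markers 5 passed the filter on low counts, 4 of them below 0, with a median of -0.46. B cell markers had a median of -0.08 (5 of 7 below 0), MHC class II genes of 0.09 (7 of 10 above 0) and mast cell markers of 0.24 (4 of 5 above 0), and no gene of these 4 lists had an unadjusted p under 0.05. The MHC class II median was -0.46 and the mast cell median -0.03 with antimiR-195 replicates 2 and 3 left out.

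Genes that sense nucleic acids and answer interferon were lower by the median, a difference that was largest in 1 library. Of 28 genes of the interferon response 26 lay below 0, with a median of -0.44, and 5 had an unadjusted p under 0.05 (6.4% of all genes). By library, the list's mean deviation was 1.09, 0.02, -0.13 and 0.08 in Upy-PEG and -0.42, 0.03, 0.03 and 0.13 in antimiR-195, so Upy-PEG replicate 1 stood above the other 7 libraries, and the remaining 3 overlapped with the antimiR-195 group. Without that library the median of the list was -0.05, with 10 genes above 0 and 18 below and none at an unadjusted p under 0.05. Ddx58, which encodes the RNA sensor RIG-I, was at 42.1 CPM in Upy-PEG replicate 1 and 19.7 to 23.8 CPM in the other 3, beside 17.9 to 23.1 CPM with antimiR-195. Of 16 tested genes for sensors and their adaptors 14 were below 0, with a median of -0.36, and 5 had an unadjusted p under 0.05 (6.4% of all genes). Their median was -0.21 without Upy-PEG replicate 1, with 2 at that p, and without all 3 libraries it was -0.16, with 12 below 0. Tlr8, a Toll-like receptor gene, stood at 5.22, 4.49, 2.30 and 2.77 CPM with Upy-PEG and 1.39, 0.258, 0.684 and 2.28 CPM with antimiR-195, and the groups barely separated. The related receptor gene Tlr7 was at 4.68 to 9.12 and 4.40 to 5.53 CPM, and the RIG-I-like receptor gene Dhx58 at 5.16 to 12.4 and 3.52 to 4.49 CPM.

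Extracellular matrix genes were lower as a group, with wide spread among the Upy-PEG libraries. Of 36 genes 35 lay below 0, with a median log2 fold change of -0.66 (0.634-fold), 24 had an unadjusted p under 0.05, all lower (6.4% of all genes), and in none did the groups separate fully. Col1a1, a chain of type I collagen, stood at 2589.6, 1849.8, 918.8 and 1416.5 CPM with Upy-PEG and 559.6, 949.9, 636.5 and 751.5 CPM with antimiR-195. Upy-PEG replicate 3 lay below antimiR-195 replicate 2, and the PBS libraries stood at 691.5 to 1143.6 CPM. The log2 fold change was -1.23 ± 0.28 (SE), with an adjusted p of 0.364 in edgeR and 0.0145 in DESeq2. Col5a1, a chain of type V collagen, was at 178 to 404 and 112 to 182 CPM, Thbs2, a thrombospondin of healing tissue, at 35.3 to 73.2 and 30.3 to 36.3 CPM, and Fn1, fibronectin, at 192 to 703 and 125 to 244 CPM. Postn, periostin of activated fibroblasts, stood at 687, 513, 224 and 293 CPM with Upy-PEG and 165, 464, 170 and 224 CPM with antimiR-195, with a log2 fold change of -0.75 ± 0.36 (SE). By library, the list's mean deviation was 1.01, 0.66, -0.12 and 0.18 in Upy-PEG and -0.43, 0.16, -0.40 and -0.06 in antimiR-195, so Upy-PEG replicate 3 lay within the antimiR-195 range. Without Upy-PEG replicate 1 the median was -0.42 and 15 genes had an unadjusted p under 0.05. Genes listed for myofibroblasts and smooth muscle had a median of -0.18, with 13 of 14 below 0 and 1 at an unadjusted p under 0.05. This was Ltbp2, which encodes a matrix protein and not a contractile one, at 19.8 to 75.8 and 15.3 to 27.5 CPM. Without Upy-PEG replicate 1 that median was 0.04. Markers of resting fibroblasts had a median of 0.10, with 8 of 12 above 0, and endothelial markers of 0.04, with 12 of 18 above 0. Both medians turned negative with library size alone, to -0.05 and -0.11, beside -0.16 for all genes in that setting. Pecam1, an adhesion protein of endothelium, stood at 142 to 167 and 128 to 160 CPM.

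**Figure D4:**
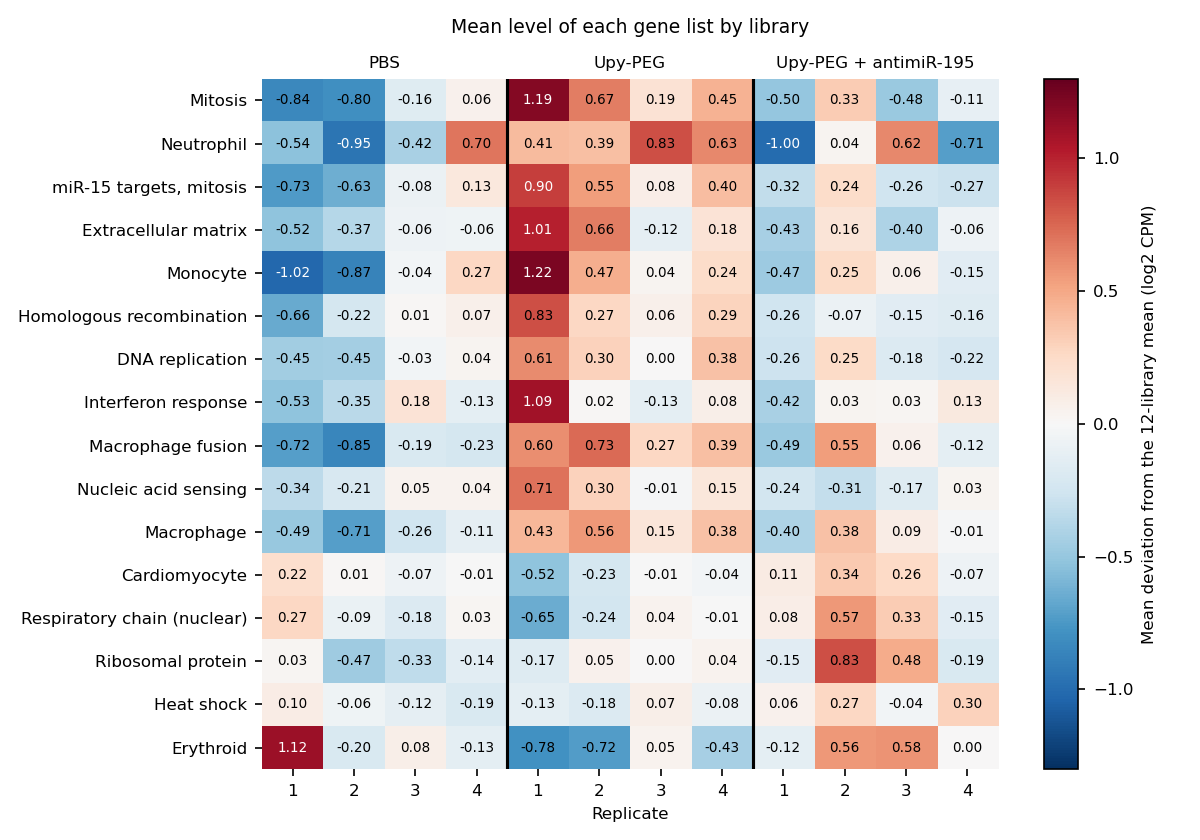
Mean deviation of each gene list from its mean over all 12 libraries (log2 CPM, colour and number) for the 4 replicates of each group. Upy-PEG replicate 1 holds the highest value of the mitosis, extracellular matrix and interferon lists (1.19, 1.01 and 1.09), and antimiR-195 replicate 2 the highest of the ribosomal protein list (0.83).

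On the higher side stood genes of heart muscle and of its energy supply. Of 20 sarcomere and cardiomyocyte markers 19 were above 0, with a median log2 fold change of 0.43 (1.35-fold), 11 had an unadjusted p under 0.05 (6.67% of all genes), and 3 did not overlap (1.94% of all genes). With antimiR-195 replicates 2 and 3 left out the median was 0.22, and with Upy-PEG replicate 1 left out as well 0.12, with 0 of 20 at an unadjusted p under 0.05 in both. Leaving out only Upy-PEG replicate 1 gave a median of 0.33, with 5 at that p. Myl2 stood at 3850.1, 5341.5, 6390.9 and 6073.8 CPM with Upy-PEG and 7054.2, 10203, 9812.6 and 6467.3 CPM with antimiR-195, with a log2 fold change of 0.63 ± 0.19 (SE). Its groups did not overlap, and the 2 highest values were in antimiR-195 replicates 2 and 3. Myoz2, a protein of the Z-disc, was at 522 to 779 and 799 to 993 CPM. Trdn, triadin of the calcium release unit, stood at 182, 229, 261 and 252 CPM with Upy-PEG and 310, 334, 332 and 277 CPM with antimiR-195, with a log2 fold change of 0.44 ± 0.12 (SE) and no overlap. The long message of Myh6, the main myosin heavy chain of the mouse ventricle, differed by 0.02 ± 0.17 (SE) and that of Myh7, the fetal form, by -0.17 ± 0.36 (SE), both within the spread between libraries.

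All 43 nuclear genes of the respiratory chain and ATP synthase were above 0, with a median of 0.45 (1.36-fold), and 28 had an unadjusted p under 0.05 (6.67% of all genes). In none of them did all 4 antimiR-195 libraries lie above all 4 Upy-PEG libraries (1.94% of all genes). Cox7a1, a heart form of a cytochrome oxidase subunit, stood at 367, 527, 685 and 619 CPM with Upy-PEG and 740, 1331.2, 1109.8 and 613 CPM with antimiR-195. AntimiR-195 replicates 2 and 3 were high, and replicate 4 lay among the Upy-PEG libraries. Ndufs4, a subunit of complex I, was at 123 to 202 and 182 to 348 CPM. Without Upy-PEG replicate 1 the number at an unadjusted p under 0.05 was 3, without antimiR-195 replicate 2 it was 2, and with all 3 libraries that stood apart left out the median was 0.02, with 25 genes above 0 and 18 below. Genes of fatty acid use had a median of 0.24, with 28 of 34 above 0, among them Hadhb, of the beta-oxidation complex, at 470 to 762 and 717 to 1037.9 CPM, and Etfb, an electron carrier, at 345 to 690 and 560 to 1041.7 CPM. An unadjusted p under 0.05 was seen for 5 of the 34 (6.67% of all genes). The median was 0.12 without Upy-PEG replicate 1 and 0.09 without all 3 libraries, with 0 at that p in both. Of 13 mitochondrially encoded genes 7 were tested. Of these, 6 were above 0 and 1 had an unadjusted p under 0.05, higher (6.67% of all genes). The gene mt-Nd1, for a subunit of complex I, did not overlap (log2 fold change 0.42 ± 0.18, SE). The mitochondrial share of all counts was 16.6% to 17.9% with Upy-PEG and 14.8% to 21.7% with antimiR-195, so it overlapped between the groups. Ribosomal protein genes had a median of 0.34, with 29 of 29 above 0. With antimiR-195 replicates 2 and 3 left out it was -0.13, with 29 of 29 below 0.

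Gene length moved with the comparison over the whole table. The median gene length was 1550 bases in the respiratory chain list, 1726 in the ribosomal protein list and 1939 in the cardiomyocyte list, against 3514 bases for all genes and 3441.5 in the fatty acid list. Gene length here is the length by which the deposited RPKM values were scaled. In the decile of the shortest genes (median 824 bases) the median log2 fold change was 0.30, with 80.9% of genes above 0. In the longest decile (median 9802 bases) it was -0.15, with 21.5% above 0. By library, the shortest decile deviated by -0.28, -0.04, 0.03 and 0.02 in Upy-PEG and by -0.03, 0.60, 0.36 and -0.13 in antimiR-195, and the largest deviations were in Upy-PEG replicate 1 and antimiR-195 replicates 2 and 3. Relative to genes of their own length decile, the respiratory chain list had a median of 0.26, the cardiomyocyte list of 0.26 and the ribosomal protein list of 0.15, while the mitosis list had -0.80 and the extracellular matrix list -0.57. With each library's slope on gene length as a covariate the medians were 0.16, 0.20, -0.03, -0.83 and -0.56 in the same order. The cause of the length pattern was not tested.

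**Figure D5:**
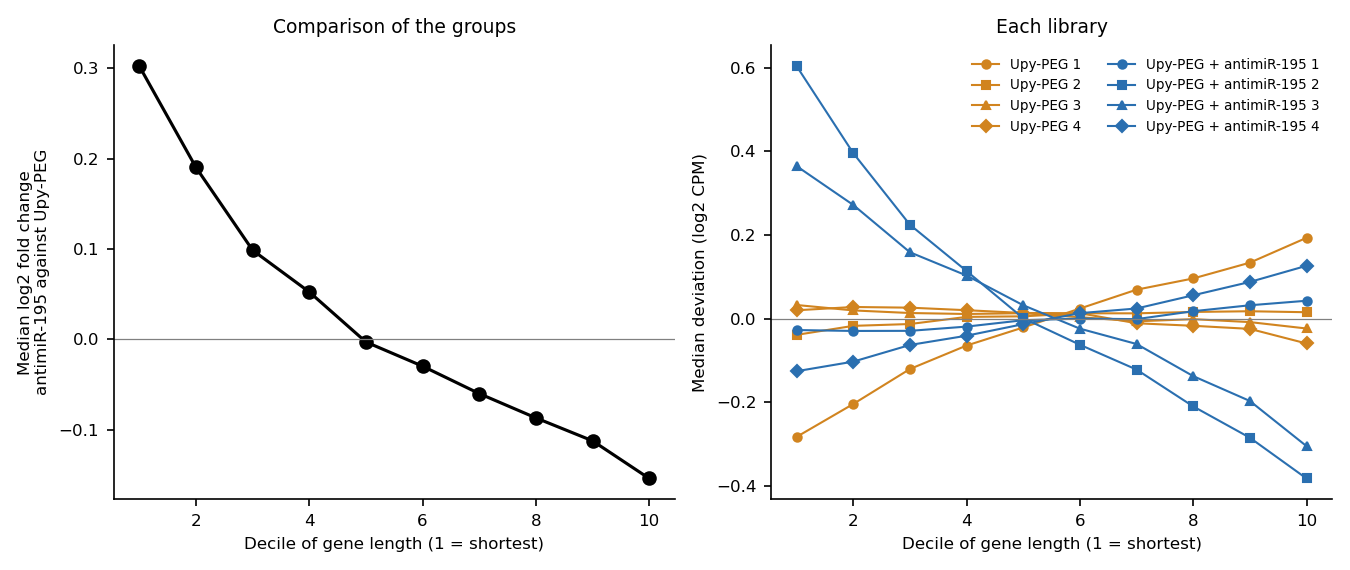
Left, median log2 fold change of antimiR-195 against Upy-PEG in each decile of gene length; right, median deviation from the 12-library mean (log2 CPM) in each of the 8 libraries. The fold change runs from 0.30 in the shortest genes to -0.15 in the longest, and antimiR-195 replicates 2 and 3 and Upy-PEG replicate 1 have the steepest lines, the last in the opposite direction.

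On the higher side, DESeq2 called Ppp1r3c and Asb5. Ppp1r3c, a subunit that targets a phosphatase to glycogen, stood at 105, 112, 110 and 115 CPM with Upy-PEG and 141, 148, 128 and 145 CPM with antimiR-195. The groups were tight and did not overlap, PBS stood at 109 to 120 CPM, and the log2 fold change was 0.35 ± 0.08 (SE), with an adjusted p of 0.364 in edgeR and 0.0056 in DESeq2. Asb5, a subunit of a ubiquitin ligase expressed in muscle, was at 15, 18.2, 17.9 and 18.4 CPM with Upy-PEG and 21.4, 27.4, 23.3 and 25.2 CPM with antimiR-195, with a log2 fold change of 0.48 ± 0.11 (SE) and an adjusted p of 0.0491 in DESeq2. Lipo3, a gene of the lipase family, stood at 9.32 to 9.94 CPM with Upy-PEG and 11.8 to 13.5 CPM with antimiR-195, and Chac2, which degrades glutathione, at 8.64 to 13.5 and 14.7 to 17.5 CPM. Atp6ap1l, Fmr1nb, Gpr37l1 and Ccl24 were scarce, at no more than 2.5 CPM in any of the 8 libraries, with log2 fold changes of 1.63 ± 0.39, 1.43 ± 0.38, 1.36 ± 0.36 and 0.89 ± 0.25 (SE). Ccl24, a chemokine that draws eosinophils, overlapped between the groups, and so did Atp6ap1l.

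Heat shock and red cell genes were also on the higher side, while 2 other stress lists showed no common direction with all libraries included. Of 18 cytosolic heat shock genes 16 were above 0, with a median of 0.25, 5 had an unadjusted p under 0.05 (6.67% of all genes) and 4 did not overlap (1.94% of all genes). Chordc1, a partner of Hsp90, stood at 29.6 to 35.2 and 37.8 to 47.7 CPM, the small heat shock protein gene Hspb1 at 72.0 to 90.2 and 99.9 to 134 CPM, and Hspa1a, the inducible Hsp70, at 1.99 to 2.77 and 2.44 to 5.68 CPM. Leaving out the 3 libraries that stood apart gave a median of 0.21 for this list, with 14 of 18 above 0. Its median was 0.11 with library size alone, beside -0.16 for all genes in that setting. There 14 lay above 0 and 4 below, with 1 higher and 1 lower at an unadjusted p under 0.05. Of 22 genes that answer misfolded protein or translational stress 11 were above 0 and 11 below (median 0.02), and of 19 genes of strained or hypertrophic heart muscle 9 were above 0 and 10 below (median -0.02). The heart muscle median was 0.11 without Upy-PEG replicate 1, with 16 above 0 and 3 below. It was 0.12 without all 3 libraries that stood apart, with 12 above 0 and 7 below. Within the last list Nppb, the B-type natriuretic peptide, was at 269, 237, 248 and 201 CPM with Upy-PEG and 275, 643, 301 and 378 CPM with antimiR-195, against 98.0 to 188 CPM in PBS. Its groups did not overlap, though antimiR-195 replicate 1 lay close to the Upy-PEG group, and its log2 fold change was 0.74 ± 0.25 (SE). Nppa, the atrial peptide, overlapped widely (log2 fold change -0.15 ± 0.27, SE). Of 10 globin and erythroid genes 9 were above 0, with a median of 0.96, and 7 had an unadjusted p under 0.05 (6.67% of all genes). Alas2, of haem synthesis in red cells, stood at 7.40 to 14.7 and 14.4 to 22.3 CPM, and Hba-a2, an alpha globin whose reads cannot be fully told from its copy Hba-a1, at 31.1 to 67.1 and 64.7 to 166 CPM. With antimiR-195 replicates 2 and 3 left out the erythroid median was 0.38 and no gene had an unadjusted p under 0.05. Cfd and Car3, which fat cells express strongly, were at 0.435 to 0.754 and 0.418 to 2.75 CPM and at 0.590 to 0.776 and 0.650 to 2.86 CPM, while the fat cell genes Adipoq and Plin1 did not pass the filter on low counts.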

How the data were processed

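RNA of 12 left ventricles (TRIzol, stranded TruSeq mRNA libraries, per the labels' protocols) was sequenced, and the authors deposited a table of read counts per gene and a table of RPKM values, made with STAR, HTSeq and DESeq on GRCm38, per the submitters' processing notes (versions and roles are not given in the sources used here). The deposited RPKM values were used only for levels of tissue markers, as log2(RPKM + 0.1) in an alternative, and with the counts to recover gene lengths. Reads outside genes (6.25% to 8.77% of a library) and ambiguous reads (0.664% to 0.898%) were left out of library sizes.

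Counts were filtered with filterByExpr, scaled by TMM and tested with edgeR 4.0.16 (R 4.3.3), quasi-likelihood, with group means over all 12 libraries and the contrast antimiR-195 minus Upy-PEG (n = 4 each, 9 residual degrees of freedom), and p-values were adjusted by Benjamini-Hochberg over all genes tested. CPM are TMM-scaled, and log2 CPM use a prior count of 2. DESeq2 1.42.0, limma 3.58.1, other scalings, filters and sets of libraries were alternatives. One, leaving out 3 libraries together, was chosen after seeing the data. The edgeR fit and the site shift were checked on simulated data with known changes. The simulated counts gave every gene the same spread beyond counting error. They held no library that stood apart, so the check does not cover such libraries.

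Seed matches were searched on the transcript strand of the longest annotated 3′ UTR of at least 20 bases per gene (GENCODE annotation of GRCm38): TGCTGCTA (8mer), TGCTGCT (7mer-m8), GCTGCTA (7mer-A1) and GCTGCT (6mer), each site counted once by its best class. The site shift is the difference of medians between genes with an 8mer or 7mer-m8 and genes with no 6mer, within 10 bins of 3′ UTR length. A 7mer-m8 or 8mer was held by 3300 of 13317 such UTRs.

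Genes named were the 10 of lowest p of each sign, a fixed set of miR-195 and marker genes, up to 3 of lowest p per direction in each list, and the 5 site genes of lowest p of each sign. Stab1, a DESeq2 call outside this rule, and the tissue markers Myl7 and Krt5 were named after their values were seen. A gene that the rule also names is not reported here. The comparison and the lists were chosen with earlier results of these data known. Libraries compared held 22353241 to 28249454 counts in genes. Counting error limits the scarce genes, and the SE given with each fold change covers it together with the spread between libraries. That SE is the absolute log2 fold change divided by the square root of edgeR's quasi-likelihood F statistic. It thus comes from the fit of all 12 libraries and not from the 8 compared alone.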

Additional observations from a re-analysis of the deposited data

Results flagged for a closer look

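Among 204 groups of 4 values examined, 8 had 1 library far from the other 3. The cut-off marks about 1 in 20 groups of independent normal values. The groups here come from the same libraries and are not independent, so whether 8 exceeds chance was not tested. In 4 of the 8 flagged groups the library was Upy-PEG replicate 1. It was highest for Dhx58 at 12.4 CPM (others 5.16 to 5.95), for Kif20a at 14.5 CPM (7.78 to 8.38) and for Ccnf at 4.97 CPM (3.01 to 3.33), and lowest for Asb5 at 15 CPM (17.9 to 18.4). Upy-PEG replicate 2 was lowest for Hspb1 at 72 CPM (87.2 to 90.2).

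AntimiR-195 replicate 2 was lowest of its group for Pecam1 at 128 CPM (158 to 160) and highest for the reported mitotic targets of miR-195, whose mean log2 CPM deviated by 0.237 there and by -0.321 to -0.26 in the others. AntimiR-195 replicate 3 was highest for Fmr1nb at 2.44 CPM (0.835 to 1.04).

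Alignments of reads that map to several places, which enter no gene count, stood at 0.749, 0.921 and 0.893 per counted read in antimiR-195 replicates 1, 2 and 3, above the 0.579 to 0.701 of all PBS and Upy-PEG libraries, and at 0.659 in replicate 4. Their part in the results was not tested.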

How the results depend on the processing

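edgeR and limma called 0 genes under every alternative, and DESeq2 called 16. Genes at an unadjusted p under 0.05 numbered 1181 at a mean CPM of at least 10 (8766 genes tested) and 1096 with Upy-PEG replicate 1 and antimiR-195 replicates 2 and 3 left out together, the alternative chosen after seeing the data. At a mean CPM of at least 10 only 4 mitosis genes were tested, 3 of them lower at that p, and no reported mitotic target. Macrophage genes lower at that p numbered 14 with the gene length slope as covariate, 17 without antimiR-195 replicates 2 and 3 (median -0.64), 16 without the 3 libraries (median -0.60) and 14 with limma voom. Respiratory chain genes higher numbered 5 with library size alone, 14 with only the 8 libraries, 6 with the slope, 1 without antimiR-195 replicates 2 and 3, 0 without the 3 libraries (median 0.019), 9 with voom and 1 with limma-trend on RPKM. The site shift was -0.077 with no length bins, -0.013 without antimiR-195 replicates 2 and 3 and -0.012 without the 3 libraries, against an SD of 0.00895 between libraries.

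Single genes changed sign as follows: with the slope, Bcl2 0.016, Cdk6 0.025 and Pecam1 0.055; without antimiR-195 replicates 2 and 3, Bcl2 0.040 and Pecam1 0.046; without the 3 libraries, Bcl2 0.17, Cdk6 0.35, Pecam1 0.085 and Ago1 0.12; with library size alone, Ccnd1 -0.067, Vegfa -0.041 and Myh6 -0.12; with limma-trend, Ccnd1 -0.068, Vegfa -0.068 and Myh6 -0.15; with voom, Pecam1 0.023. With no adjusted p near the threshold in edgeR, staying on the same side of it says little about stability. Of the list medians 515 moved by less than the spread between libraries and 69 by more.

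Leaving out 1 library at a time, genes at an unadjusted p under 0.05 ranged from 704 (without Upy-PEG replicate 1) to 3518 (without antimiR-195 replicate 4), mitosis genes lower from 12 to 31, matrix genes from 15 to 30, macrophage genes from 6 to 12, respiratory chain genes higher from 2 to 36, and the site shift from -0.0129 to 0.0056. List medians ranged from -1.10 to -0.56 (mitosis), -0.89 to -0.45 (reported mitotic targets), -0.84 to -0.42 (matrix), -0.42 to -0.15 (macrophage) and 0.28 to 0.56 (respiratory chain). Single genes that changed sign ranged from -0.55 to 0.11 (Cdk6), -0.020 to 0.20 (Vegfa), -0.42 to 0.074 (Nppa), -0.58 to 0.023 (Myh7), -0.071 to 0.030 (Pecam1), -0.33 to 0.095 (Ccne1) and -0.10 to 0.099 (Myh6). The causes were not tested. No paired analysis was possible because the replicate numbers follow accession order and pair no samples.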
